A study of Mus musculus with 27 samples.

Results

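The genes described here are the protein-coding genes of mouse chromosome 14 that were expressed in this series, taken in their order along the chromosome. Gene identifiers were matched without their version to GENCODE release 21 on the GRCm38 build, and a gene was taken when its mean over the 27 libraries was 1 CPM or more (CPM, a count scaled to the same total in every library). This gave 448 of the 892 protein-coding genes of chromosome 14, out of 51826 gene identifiers in all, and 444 lay under the threshold. The members nearest the threshold were Gpr183 (1.01 CPM), Ang (1.05) and Phf11c (1.06), and just outside it lay 2610042L04Rik (0.98), Gm7324 (0.963) and Chdh (0.961). The chromosome was chosen on its median fold change against wild type, by day and by position, beside the other autosomes. It read highest in 1 of the knockout lines. Every difference between a knockout line and wild type is therefore given as a description, without a test.

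The wild-type cells were E14, an embryonic stem cell line of the mouse, and the other lines carried labels of a knockout (KO) of Quaking or of Sam68, which are RNA-binding proteins of the STAR family. Their total RNA was sequenced. Each line was sampled at day 0 and at days 3 and 10 of embryoid body differentiation, in which the stem cells grow as aggregates and form early lineages, with 3 biological replicates for each of the 9 groups. No other allele or agent is given in the labels, each knockout stands for 1 line, and what belongs to the line and what to the lost gene cannot be told apart. The Sam68-labelled libraries also carry their own range of library numbers, so a library batch and that label cannot be told apart either.

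The libraries held between 56461674 and 77257496 counts. Khdrbs1, the gene of Sam68, still gave RNA in the libraries with that label, at 86.6 to 94.8 CPM on day 0 against 89.9 to 93.1 CPM in wild type. At day 3 it read 92.6 to 107 CPM against 152 to 165 CPM, lower with no overlap. At day 10 it read 102.2 to 104.9 CPM against 105.4 to 158.6 CPM, also without overlap but by a narrow gap. Because its RNA was present at every day and not lower at day 0, the libraries are called the Sam68-labelled line here. Qk RNA lay at 137 to 155 CPM in the Quaking KO libraries of day 0 against 212 to 224 CPM in wild type. Each gene also differed in the line with the other label. Khdrbs1 read 63.9 to 70.5 CPM in Quaking KO at day 0, below wild type, and 152 to 182 CPM at day 3, which overlaps it. Qk read 195 to 213 CPM in the Sam68-labelled line at day 0, which overlaps wild type. At day 3 it read 182 to 187 CPM against 218 to 232 CPM. Whether either protein was lost was not measured in these files. All 7 pluripotency markers were present at day 0 in every group, with a summed level of 3596 to 3758 CPM in wild type and 2829 to 2873 CPM in the Sam68-labelled line. The 5 primitive streak markers summed to 503 to 764 CPM in wild type at day 3 and to 65.2 to 109 CPM in the Sam68-labelled line. In bulk RNA, fewer cells of a type and less RNA per cell cannot be told apart.

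Genes that lie side by side on a chromosome mostly have unrelated functions, and each is switched by its own promoter and enhancers. Their RNA levels can still move together, because neighbours share chromatin domains, replication timing and, in cultured cells, the number of copies of the chromosome segment they lie on. Embryonic stem cell lines are known to gain or lose whole chromosomes or segments during culture and cloning. DNA copy number was not measured in these files.

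From each side of the position described next, a pair of members was taken. These had the highest mean CPM within their 10 Mb bins, under 5% of sequence shared with other genes, and an entry in the promoter table. Their 4 promoters are shown as examples only, since the positional comparison rests on medians over all members. Each is the 250 bases before the RefSeq start of the gene on build GRCm38.p6, printed 5′ to 3′ on the gene's strand, with capitals for the GC box GGGCGG or its reverse complement CCGCCC. Rps24 (chr14:24490428-24490677, plus strand) and Tkt (chr14:30548881-30549130, plus strand) lie on the centromere side, and Dis3 (chr14:99099771-99100020, minus strand) and Ipo5 (chr14:120910944-120911193, plus strand) on the distal side.
Rps24: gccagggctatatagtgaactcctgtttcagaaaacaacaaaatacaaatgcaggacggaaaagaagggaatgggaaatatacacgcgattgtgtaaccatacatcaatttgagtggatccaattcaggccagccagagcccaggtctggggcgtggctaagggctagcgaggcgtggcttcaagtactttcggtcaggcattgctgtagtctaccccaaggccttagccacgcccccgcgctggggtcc
Tkt: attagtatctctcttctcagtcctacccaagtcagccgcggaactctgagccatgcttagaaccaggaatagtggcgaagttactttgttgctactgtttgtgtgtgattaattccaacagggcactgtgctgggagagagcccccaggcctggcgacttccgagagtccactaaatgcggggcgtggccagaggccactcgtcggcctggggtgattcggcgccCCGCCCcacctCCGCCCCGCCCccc
Dis3: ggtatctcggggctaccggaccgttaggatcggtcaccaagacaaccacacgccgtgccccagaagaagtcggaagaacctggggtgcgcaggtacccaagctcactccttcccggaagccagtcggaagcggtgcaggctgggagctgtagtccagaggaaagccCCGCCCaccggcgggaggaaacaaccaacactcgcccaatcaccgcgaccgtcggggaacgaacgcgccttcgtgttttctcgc
Ipo5: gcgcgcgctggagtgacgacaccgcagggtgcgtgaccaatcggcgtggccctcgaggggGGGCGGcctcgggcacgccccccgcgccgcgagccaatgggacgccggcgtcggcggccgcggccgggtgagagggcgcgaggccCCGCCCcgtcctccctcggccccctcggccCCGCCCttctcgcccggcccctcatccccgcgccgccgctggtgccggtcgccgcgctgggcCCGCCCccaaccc
The Rps24 window held 0 GC boxes, Tkt 3, Dis3 1 and Ipo5 4, where 2 boxes that share a base count separately. Of all 27025 genes of that table, 32.7% held a GC box in the same window. A comparison of promoter letters between the sides of the chromosome is void, because only 77 of the 161 distal members had an entry, against 253 of 287 proximal ones.

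Over the whole chromosome, the members read higher in the Sam68-labelled line than in wild type by a small margin at every day. Their median log2 fold change (log2FC) from edgeR was 0.091 at day 0, 0.017 at day 3 and 0.21 at day 10, over 437, 440 and 447 genes that passed the filter on low counts. The same medians over protein-coding genes of the other 18 autosomes were -0.061, -0.067 and 0.027. Chromosome 14 ranked 1 of 19 autosomes at each day, and the next chromosomes were 9, 7 and 8, with medians of -0.00047, -0.0026 and 0.17. The day 3 median was close to 0 and its sign was not steady: it read -0.0031 without replicate 1 of wild type at day 3 and -0.023 when no filter on low counts was used. In Quaking KO the medians were 0.032, 0.023 and 0.037, at ranks 4, 4 and 2. These comparisons share the wild-type libraries of each day.

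**Figure D1:**
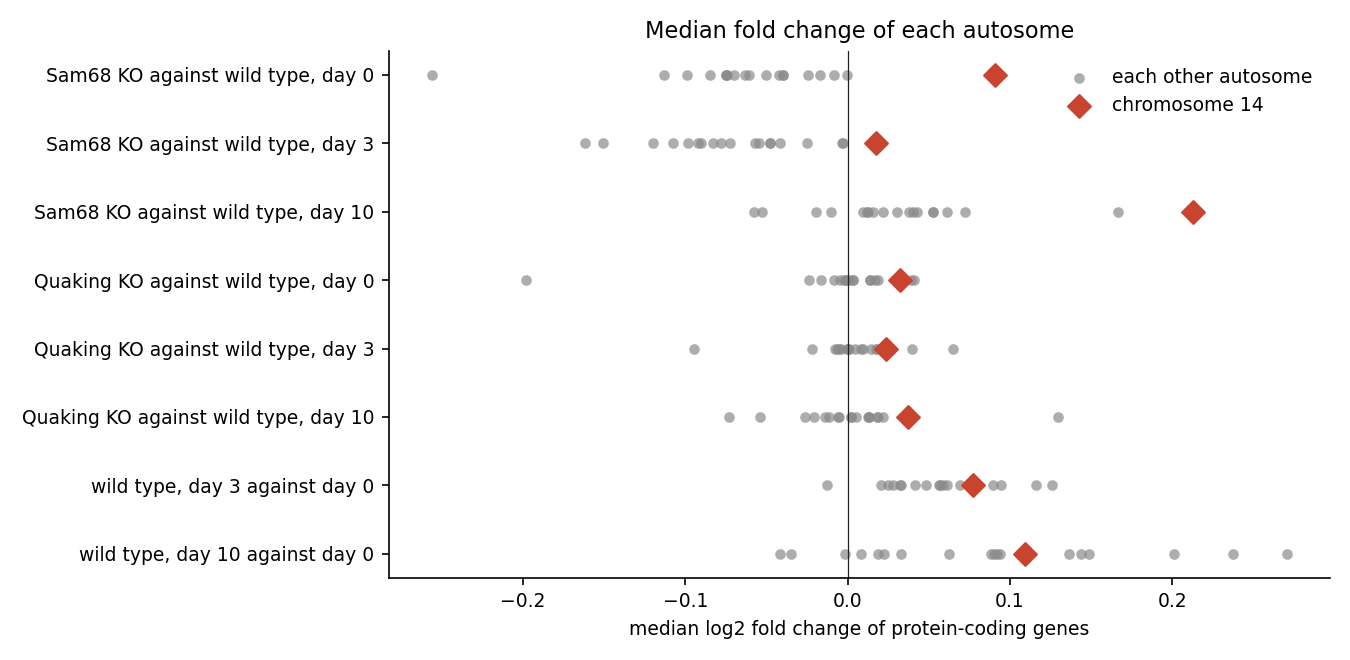
Median log2 fold change (x axis, log2) of the protein-coding genes of each of the 19 autosomes in 8 comparisons (rows), with chromosome 14 as a diamond and each other autosome as a grey point. Chromosome 14 lies to the right of the other 18 in the 3 comparisons of the Sam68-labelled line with wild type (0.091, 0.017 and 0.21), and among them in the Quaking KO and wild-type rows.

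The margin was not spread evenly over the chromosome. The values stepped up in the middle, although at day 10 the proximal members also read above the other autosomes (medians of 0.10 and 0.027). The step lay between Fdft1, the gene of squalene synthase, which ends at position 63179578, and Neil2. Neil2 is a DNA glycosylase gene of base excision repair and starts at 63182443. The position was found as the one that splits the members into 2 runs with the least absolute deviation from their medians, with 40 or more genes on each side, and this description was chosen after the values in fixed bins had been seen. The position was the same at days 0, 3 and 10, and it was the same in each of the 9 Sam68-labelled libraries when they were set against wild type singly. Proximal to it lay 287 members over 59.0 Mb (4.86 members per Mb), from Gm2974 to Fdft1, and distal to it 161 members over 61.5 Mb (2.62 per Mb), from Neil2 to Fgf14.

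The distal members read 1.34-fold above wild type at day 0, 1.24-fold at day 3 and 1.44-fold at day 10 as a median, which are log2FC of 0.42, 0.31 and 0.53. The proximal members had medians of -0.084, -0.13 and 0.10. These were closer than the distal ones to the medians of the other autosomes (-0.061, -0.067 and 0.027). The distal median lay above the proximal one by 0.51, 0.44 and 0.43. At day 0 the interquartile range of the distal values ran from 0.15 to 0.62 and that of the proximal values from -0.28 to 0.19, so both sets overlapped. Of the distal members 127 of 155 (81.9%) had a log2FC above 0 at day 0, 122 of 157 (77.7%) at day 3 and 136 of 160 (85%) at day 10.

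**Figure D2:**
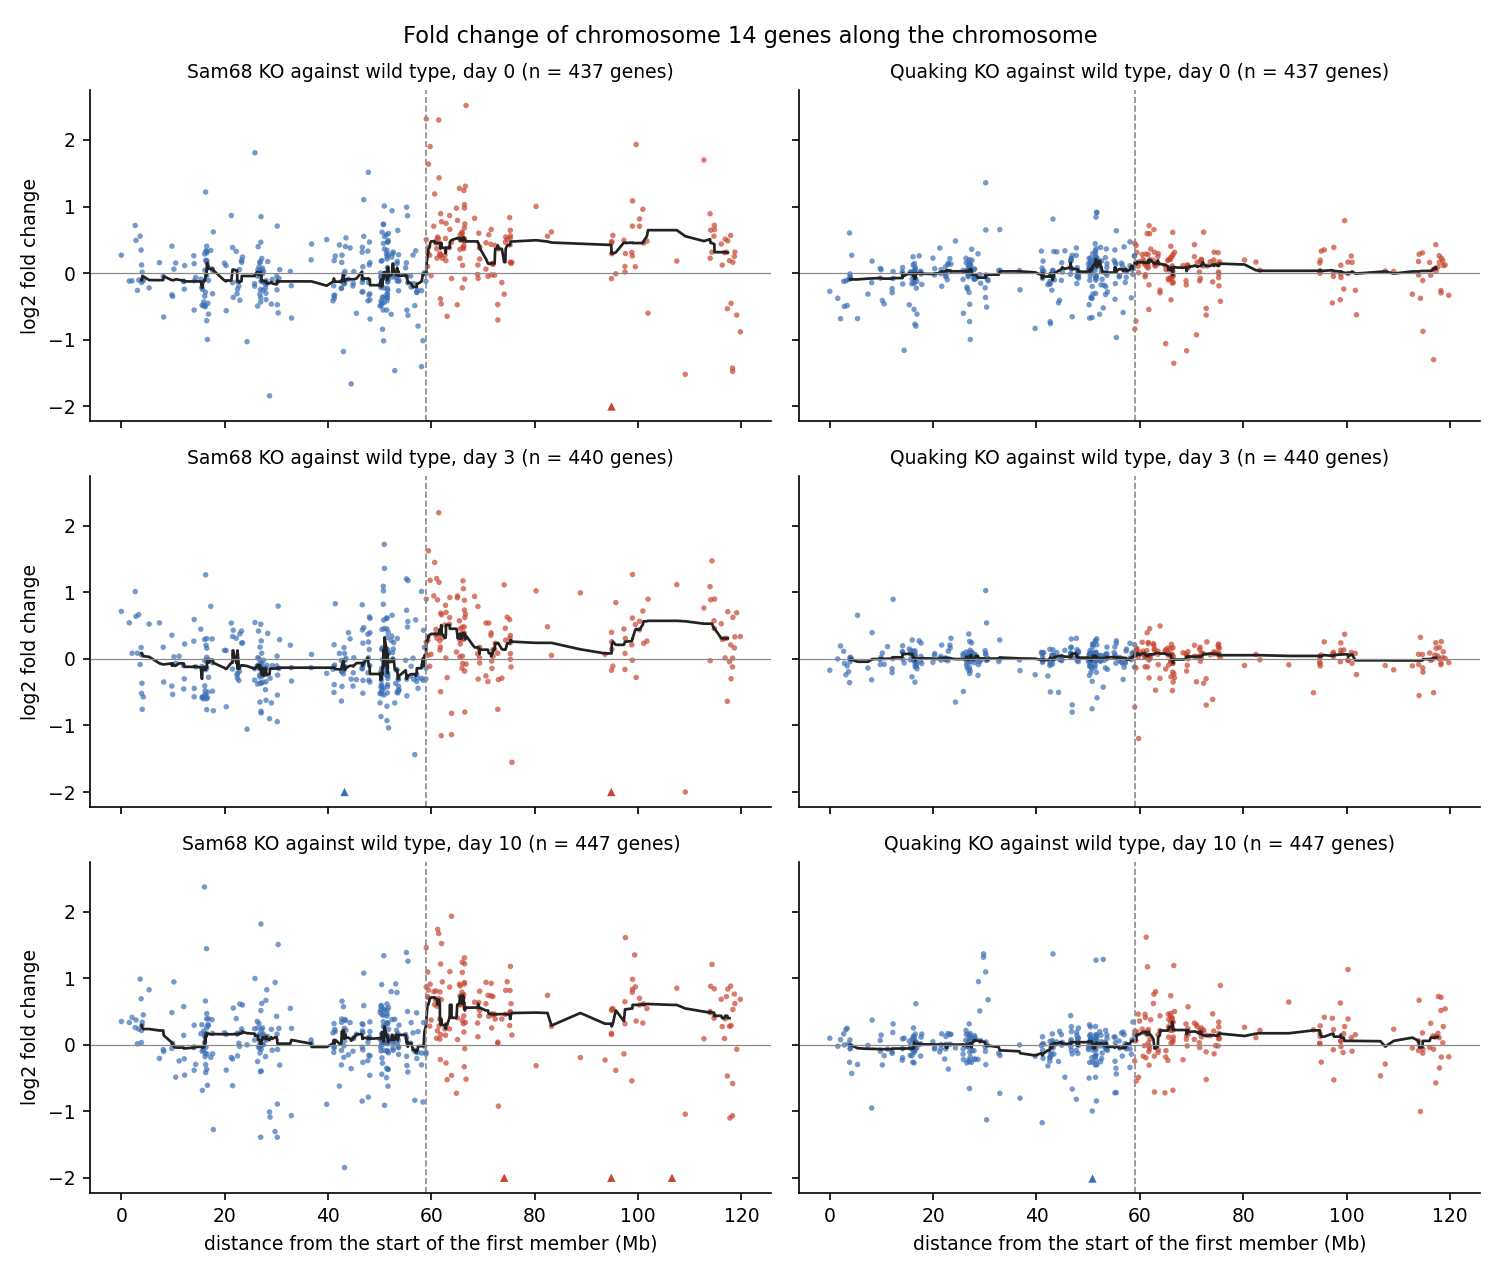
Log2 fold change against wild type (y axis) of each member by its distance from the start of the first member (x axis, Mb), in the Sam68-labelled line (left) and Quaking KO (right) at each day, with proximal members in blue, distal members in red, a running median of 21 genes in black and the break as a dashed line; triangles are values beyond the axis. The running median steps up at the break in the 3 left panels (distal minus proximal 0.51, 0.44 and 0.43) and Quaking KO has distal medians of 0.11, 0.049 and 0.15 on the right.

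In bins of 10 Mb, the 5 bins between 10 and 60 Mb had day 0 medians between -0.12 and -0.038, the bin from 60 to 70 Mb, which holds the break, read 0.30, and the bin from 70 to 80 Mb read 0.42. Beyond 80 Mb each bin held under 20 members and is thin. Their day 0 medians were 0.62 (3 members), 0.29 (7), 0.47 (16), 0.60 (10) and 0.19 (17) up to the distal end. All 7 bins from 60 Mb on were above 0 at each of the 3 days.

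The genes next to the break are given as a description only, since the break was placed from these values and its sides had to differ. Among the 10 members on its proximal side, 1 had a log2FC above 0 at day 0, 3 at day 3 and 2 at day 10. Among the 10 on its distal side, 9, 9 and 10 did. Fdft1 had 67.5, 68.7 and 72.5 CPM in wild type at day 0 and 66.8, 71.4 and 69.7 CPM in the Sam68-labelled line, which overlap. The cathepsin B gene Ctsb before it had 77.2, 80.9 and 86 CPM against 73.3, 75.9 and 75, slightly lower with no overlap, and both genes share sequence with other genes (26.5% and 12.1% of 50-base windows). Neil2 had 4.6, 4.35 and 4.86 CPM against 6.39, 6.15 and 7.05, and all 3 Sam68-labelled libraries lay above all 3 of wild type. Its log2FC was 0.50, 0.25 and 0.87 at days 0, 3 and 10. Further genes of that run were Mtmr9, a myotubularin-related gene (0.30, 0.28 and 0.71), Ints9, a subunit of the Integrator complex (0.48, 0.36 and 0.68), and Extl3, a glycosyltransferase of heparan sulfate synthesis (0.45, 0.44 and 0.81), which were named after their values were seen. On the proximal side, Kpna3, an importin gene, read -0.29, -0.23 and -0.21, and Rnaseh2b, a subunit of ribonuclease H2, -0.26, -0.29 and -0.13.

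At the edgeR threshold (Benjamini-Hochberg adjusted p under 0.05), 119 distal members were called higher and 17 lower at day 0, where 74.4% of all 19841 genes tested were called, 36.5% higher and 37.9% lower. At day 3 the counts were 102 and 23, where 73.1% of all genes were called, 36% higher and 37.1% lower. At day 10 they were 116 and 12, where 50.6% were called, 22.8% higher and 27.8% lower. The proximal members gave 87 higher and 126 lower at day 0, 81 and 137 at day 3, and 106 and 45 at day 10. All 3 Sam68-labelled libraries lay above all 3 wild-type libraries for 117 of 155 distal members (75.5%) at day 0, 106 of 157 (67.5%) at day 3 and 122 of 160 (76.3%) at day 10, against 37.8%, 37.8% and 26.9% of all genes. For 78 of 154 (50.6%) this held at all 3 days, against 23 of 281 proximal members (8.19%) and 7.46% of all genes. Nothing is read from these counts as evidence, since the chromosome was chosen on this contrast and the position from its values.

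Each library gave the same picture. After subtraction of the median of the other autosomes, the distal members of the Sam68-labelled libraries lay between 0.43 and 0.44 (log2 ratio to the wild-type mean of the day, with 0.5 CPM added) on day 0, between 0.34 and 0.37 on day 3 and between 0.45 and 0.49 on day 10. The wild-type libraries spread from -0.027 to 0.023 over the 3 days. The groups did not overlap at any day. Proximal members lay at -0.018 to -0.011, -0.058 to -0.055 and 0.047 to 0.084 in the Sam68-labelled libraries of days 0, 3 and 10. In wild type they lay at -0.0065 to 0.0013, -0.0021 to 0.0039 and -0.0050 to 0.0055. So the proximal shifts were smaller but did not overlap wild type either, lower at days 0 and 3 and higher at day 10. In Quaking KO the distal shift was smaller, 0.065 to 0.088, 0.028 to 0.044 and 0.13 to 0.16, and lay above that of all wild-type libraries of the same day. As a share of autosomal protein-coding counts, distal members made up 1.16% ± 0.010 (SD, n = 3) in wild type and 1.66% ± 0.0023 in the Sam68-labelled line at day 0, and 1.32% ± 0.038 and 1.84% ± 0.010 at day 10.

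**Figure D3:**
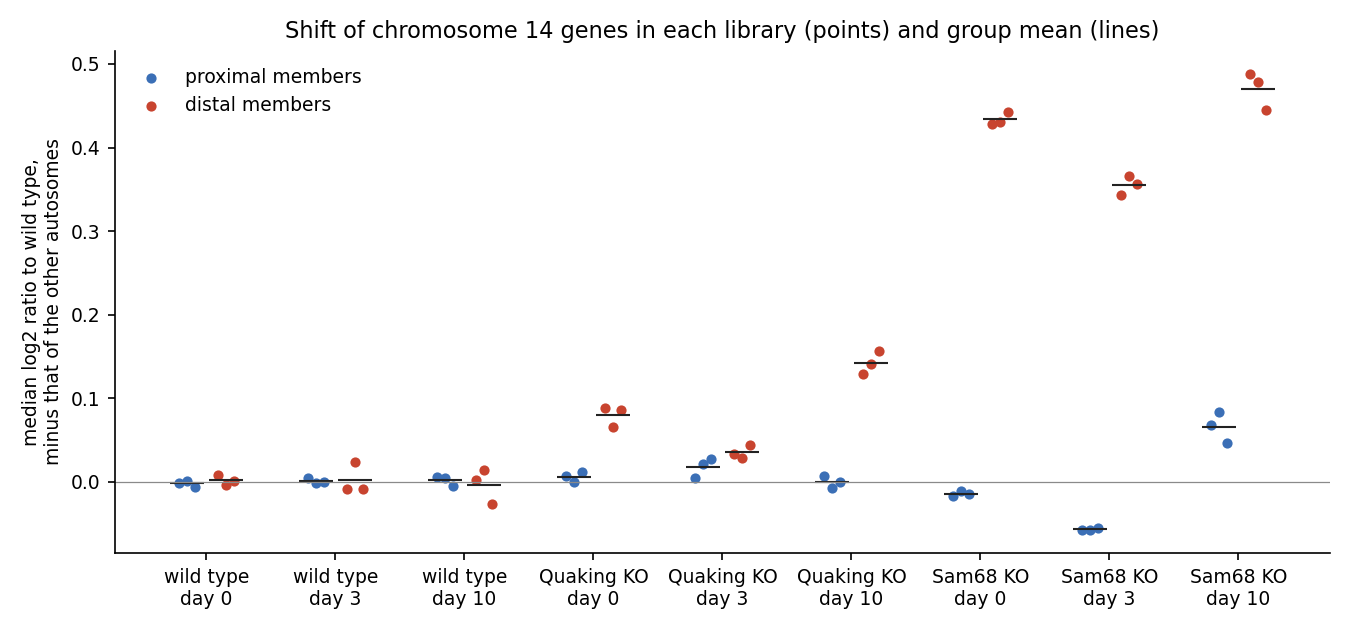
Shift of the proximal (blue) and distal (red) members in each of the 27 libraries (y axis, median log2 ratio to the wild-type mean of the day minus that of the other autosomes), with 1 point per library and a line at the mean of each group of 3. The 9 Sam68-labelled libraries have distal shifts between 0.34 and 0.49, and the wild-type libraries lie between -0.027 and 0.023.

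The step was set beside the best single break on every other autosome, as a description only. Chromosome 14 was chosen on these fold changes, also by position, so that choice favoured a high place for its break. On chromosome 14 it removed 13.7%, 10.3% and 9.97% of the absolute deviation at days 0, 3 and 10 in the Sam68-labelled line against wild type. The next chromosome removed 4.10% (chromosome 8), 2.18% (chromosome 2) and 5.32% (chromosome 8). In size, the step on chromosome 2 at day 3 was larger than that on chromosome 14, 0.49 against 0.44. Against Quaking KO in place of wild type, the distal members of the Sam68-labelled line again lay above the proximal ones, by 0.36, 0.42 and 0.27. There the best break on chromosome 14 removed 7.60%, 10.2% and 2.67% of the deviation, and the next chromosome 2.94% (chromosome 13), 1.45% (chromosome 12) and 2.14% (chromosome 13). In size, the step on chromosome 13 was the larger one at day 0 (0.361 against 0.358) and day 10 (0.29 against 0.27). In Quaking KO against wild type, chromosome 14 showed differences of 0.095, 0.037 and 0.15 at that position. The break that removed most deviation was on chromosome 8 (10.7%, 17.6% and 19.9%). The best break of Quaking KO on chromosome 14 lay before Ap5m1 (position 49066097) at day 0 and before Spryd7 (61531993) at day 3. At day 10 it lay before Ints6 (62676330), 4 members from Neil2, with a step of 0.15. These breaks removed 2.91%, 1.13% and 5.11% of the deviation. A break near that place was therefore not particular to the Sam68-labelled line at day 10. 

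**Figure D4:**
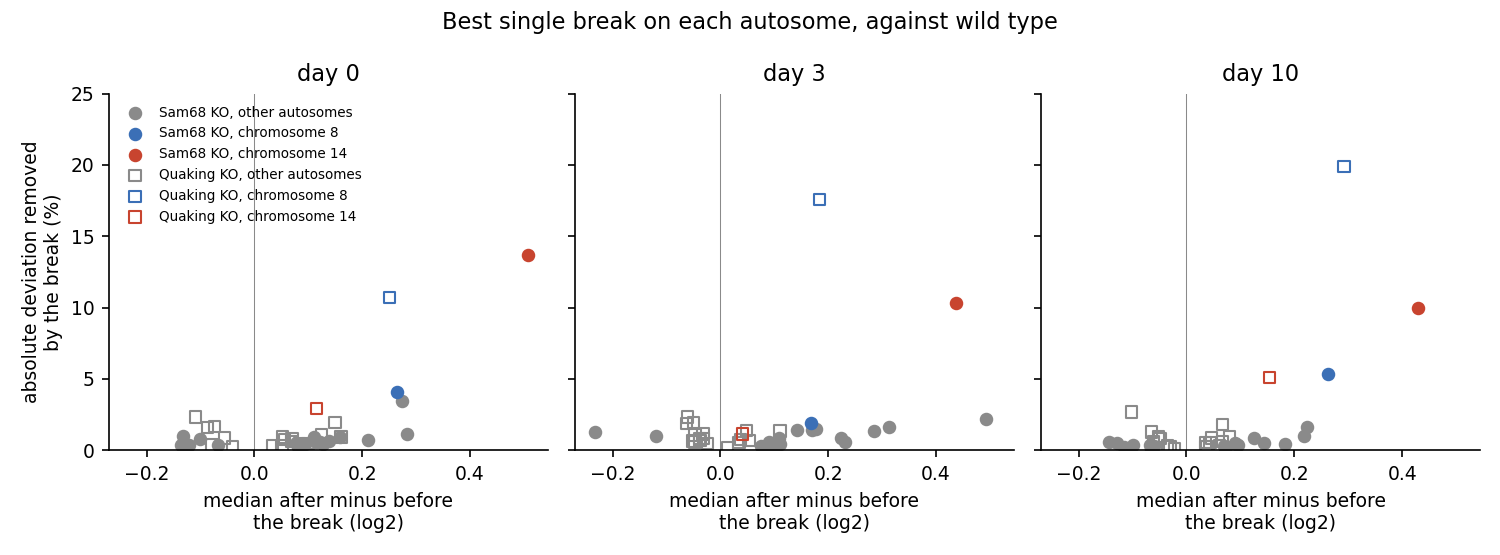
Best single break on each autosome against wild type, by the median after minus before the break (x axis, log2) and the share of absolute deviation it removed (y axis, percent), for the Sam68-labelled line (filled circles) and Quaking KO (open squares). Chromosome 14 of the Sam68-labelled line (13.7%, 10.3% and 9.97%) and chromosome 8 of Quaking KO (10.7%, 17.6% and 19.9%) stand apart from the other autosomes in the share removed, while the day 3 step on chromosome 2 is larger in size (0.49 against 0.44). Chromosome 14 was chosen on these fold changes by day and position, so its place here is a description only.

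The distal members read above 0 in every class of expression level, length and base composition. At day 0 the distal median was 0.24, 0.48 and 0.44 in the lowest, middle and highest of 3 equal classes of mean CPM, 0.43, 0.38 and 0.47 in those of gene length, and 0.40, 0.37 and 0.49 in those of transcript GC content. The corresponding proximal medians lay between -0.12 and 0.020. Distal members were longer as a median, 40.5 kb against 22.9 kb, with a GC content of 47.6% against 48.2%. Noncoding genes of chromosome 14 at the same CPM threshold, 18 proximal and 17 distal, are few. Against wild type they had medians of 0.58 and 0.91 at day 0, 0.47 and 0.66 at day 3 and -0.46 and -0.25 at day 10. The distal median was the higher one there, by less, but 10 of 18 proximal and 10 of 17 distal genes lay above 0 at day 0. Against Quaking KO the distal median was the lower one at day 0 (0.638 against 0.644) and day 3 (0.35 against 0.41). At day 10 it was the higher one (-0.36 against -0.45).

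Members were then read by role, in lists that ignore position. Over all genes tested, the median log2FC of the Sam68-labelled line against wild type at day 0 was -0.012. The 18 tested developmental transcription factors had 8 called higher and 5 lower at day 0, beside 36.5% and 37.9% of all genes, with a median of 0.051. Their medians were 0.19 for 8 proximal and -0.021 for 10 distal genes at day 0, 0.25 and 0.14 at day 3, and -0.12 and 0.40 at day 10, so the distal median was the higher one at day 10 only. Otx2, a homeobox gene of the anterior epiblast and forebrain, was proximal and read 7.44, 6.91 and 7.1 CPM in wild type against 2.15, 2.25 and 2.36 CPM in the Sam68-labelled line at day 0, a log2FC of -1.66 ± 0.084 (SE). At day 3 its levels were 117, 118 and 117 against 95.9, 95.4 and 93.5 CPM. Zic5, a zinc finger gene of the neural plate near the distal end, went against its neighbours with 20.2, 20.6 and 20 CPM against 7.41, 7.09 and 8.07 CPM at day 0.

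Gata4, a transcription factor gene of endoderm and heart and the next gene after Neil2, had 13.8, 13.6 and 13.4 CPM in wild type and 66.5, 70.4 and 66.5 CPM in the Sam68-labelled line at day 0, which is 4.98-fold. At day 10 it had 173, 171 and 156 CPM against 448, 482 and 442 CPM, 2.75-fold. Sox7, an endoderm and endothelial transcription factor gene in the same stretch, had 10.8, 9.92 and 9.53 CPM against 39.9, 37.6 and 35.4 CPM at day 0. Neither gene's groups overlapped, and both lay well beyond the distal median. Markers of extraembryonic endoderm (Sox17, Gata6, Afp, Apob and Ttr, none of them on chromosome 14) summed to 12.9 to 13.8 CPM in wild type and 45.3 to 48.4 CPM in the Sam68-labelled line at day 0, with 3 of 5 at a mean of 1 CPM or more in both. The 5 fibroblast markers summed to at most 13.4 CPM in wild type and 45.9 to 49.2 CPM in the Sam68-labelled line, with 3 and 2 of them at 1 CPM or more. The part of such cells in the Gata4 and Sox7 values was not tested.

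Among growth factor ligands, receptors and modulators, 9 of 16 were called higher and 5 lower at day 0, beside 36.5% and 37.9% of all genes, and the medians were 0.050 for 8 proximal and 0.78 for 8 distal genes. Gfra2, a co-receptor of the neurturin ligand, was distal and had 1.47, 1.49 and 1.47 CPM in wild type against 8.63, 8.2 and 8.6 CPM in the Sam68-labelled line at day 0, 5.72-fold. At day 10 the order was the other way, with 8.86, 7.76 and 8.41 against 5.2, 5.83 and 6.44 CPM. Bmp4, a proximal ligand gene of early mesoderm, read 67.4, 64.4 and 66.1 against 87.1, 87.3 and 90.9 CPM at day 0 and 50.5, 54.5 and 50.4 against 36.7, 30.4 and 33.7 CPM at day 10. Wnt5a, a proximal ligand gene of noncanonical Wnt signalling, was low at day 0, at 0.391 to 0.527 CPM against 0.198 to 0.275.

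The contractile, adhesion and matrix list had 9 genes called higher and 6 lower of 16 at day 0, beside 36.5% and 37.9% of all genes, with 12 proximal genes at a median of -0.14 and 4 distal genes at 0.50. At day 10, 13 were called higher and 1 lower, beside 22.8% and 27.8% of all genes, and the medians were 0.42 and 0.87. Lmo7, a distal gene for a LIM domain protein at cell junctions, had 58.5, 55.3 and 51.6 CPM in wild type at day 10 against 185, 168 and 152 CPM. The cardiac myosin heavy chain genes Myh6 and Myh7 are proximal neighbours that share 20.2% and 20% of their 50-base windows with other genes, so reads between them could be split. Myh7 had 345, 270 and 291 CPM against 822, 654 and 809 CPM at day 10, and Myh6 408, 390 and 376 against 575, 592 and 537 CPM. The 5 cardiac muscle markers, of which Myh6 is 1, summed to 677 to 738 CPM in wild type and 1198 to 1333 CPM in the Sam68-labelled line at day 10, and their part in these values was not tested. In Quaking KO, Myh6 had 59.6, 84.1 and 131 CPM and the marker sum was 142 to 307 CPM.

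Of 13 ubiquitin and proteasome genes, 3 were called higher and 7 lower at day 0, beside 36.5% and 37.9% of all genes, and the 3 distal ones (median 0.70) all lay above 0 while 2 of the 10 proximal ones (median -0.34) did. Mycbp2, a distal gene of a large ubiquitin ligase, had 121, 118 and 106 CPM in wild type against 249, 240 and 242 CPM in the Sam68-labelled line at day 0. It stayed near that ratio, 2.12-fold, 2.41-fold and 1.97-fold at the 3 days, with no overlap. Psmb5, a catalytic subunit gene of the proteasome on the proximal side, had 42.8, 41.9 and 45.1 against 31.9, 31.9 and 31.4 CPM, with 54.1% of its windows shared with other genes.

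All 6 distal members of the RNA binding and processing list had a log2FC above 0 at each day, with medians of 0.48, 0.37 and 0.40, and the 10 proximal ones had medians of -0.11, -0.29 and 0.024. Rbm26, an RNA-binding protein gene, had 181, 173 and 157 against 328, 325 and 338 CPM at day 0. Dis3, the gene of a nuclease of the RNA exosome, had 207, 203 and 205 against 255, 247 and 252 CPM. Hnrnpc, a proximal gene of a nuclear RNA-binding protein with 8.28% shared windows, had 487, 492 and 497 against 400, 395 and 380 CPM, and Ngdn, a proximal gene of ribosome biogenesis, 63.5, 65 and 66.8 against 47.7, 48 and 47.8 CPM. In this list 9 genes were called higher and 6 lower at day 0, beside 36.5% and 37.9% of all genes.

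Of 20 mitochondrial and metabolic genes, 3 were called higher and 12 lower at day 0, beside 36.5% and 37.9% of all genes, with medians of -0.41 (14 proximal) and 0.11 (6 distal). Tkt, transketolase of the pentose phosphate pathway, had 396, 419 and 451 against 299, 306 and 293 CPM, and Slc25a37, the mitochondrial iron importer mitoferrin on the distal side, 31.1, 30 and 26.5 against 49.9, 51.4 and 50.4 CPM. Cell cycle and mitosis genes had 5 called higher and 3 lower of 12 beside the same shares, with medians of -0.082 (7 proximal) and 0.38 (5 distal). Bora, the activator of Aurora A, had 70.1, 70.8 and 66.6 against 93.2, 96.4 and 95.4 CPM, while proximal Wdhd1 of DNA replication had 124, 130 and 127 against 126, 123 and 125 CPM, which overlap. Chromatin and DNA repair genes had 8 called higher and 7 lower of 15, again beside 36.5% and 37.9%, with medians of -0.13 (12 proximal) and 0.26 (3 distal). Rb1, the retinoblastoma gene, read 24.2, 24.5 and 23.1 against 26.8, 25 and 26.3 CPM at day 0 and 22, 21.9 and 20.8 against 37.6, 35.6 and 38.4 CPM at day 3.

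**Figure D5:**
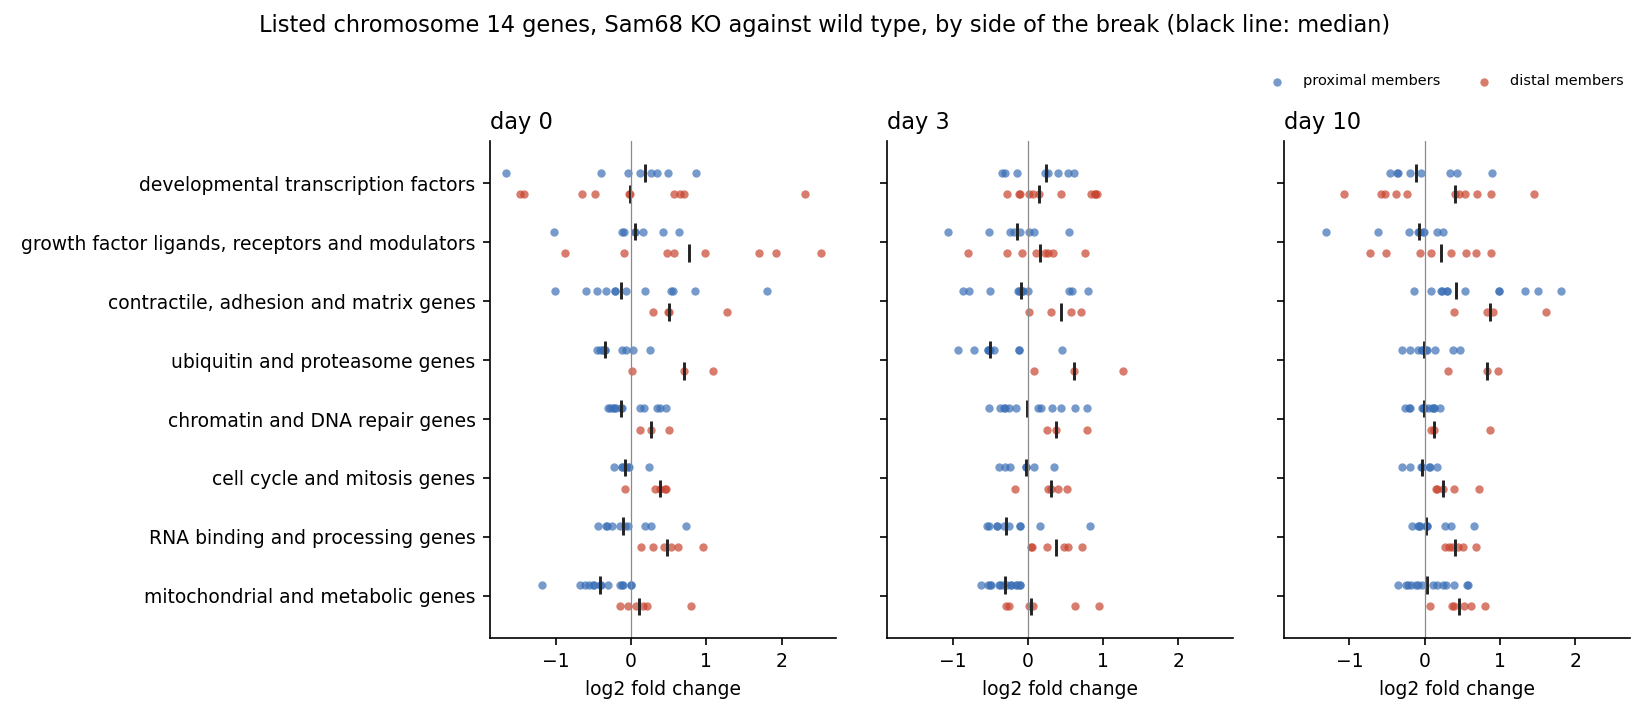
Log2 fold change of the Sam68-labelled line against wild type (x axis) for the members of 8 role lists (rows) at each day, with proximal members in blue, distal members in red and the median of each set as a black line. Distal medians lie to the right of proximal ones in the 7 lists other than developmental transcription factors at day 0, where they read -0.021 and 0.19.

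Some, but not all, of the members with the highest mean CPM in their 10 Mb bin showed the same order at day 0, where counting error is small. Rps24, a proximal ribosomal protein gene, had 1270, 1241 and 1229 CPM in wild type and 867, 849 and 814 CPM in the Sam68-labelled line at day 0. Ipo5, a distal gene of a nuclear import receptor, had 975, 982 and 1000 CPM against 1219, 1235 and 1208 CPM. At day 10 Ipo5 had 475, 460 and 454 against 509, 495 and 477 CPM, a log2FC of 0.093. Diaph3, a formin gene of the actin cytoskeleton, had 74.6, 78 and 74.5 against 108, 111 and 114 CPM at day 0 and no overlap at the later days. Not all members followed their side: distal Tpt1, the translationally controlled tumour protein gene, had 808, 788 and 806 against 789, 803 and 766 CPM at day 0, which overlap.

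The members with the highest mean log2FC over the 3 days were Nuggc, Gata4, Xkr6, Sox7, Cacna1d and Mycbp2, of which Cacna1d, a calcium channel subunit gene, is proximal and the other 5 are distal. Nuggc, a nuclear GTPase gene of germinal centres, had 1.97, 1.66 and 1.59 CPM against 8.95, 8.74 and 7.99 CPM at day 0. The 6 lowest were Rpl36a-ps1, Tpm3-rs7, Lgals3, Vstm4, Tnfrsf19 and Zic5. Rpl36a-ps1 and Tpm3-rs7 are distal copies of other genes, with 65% and 69.4% of their windows shared, so their values are uncertain. Rpl36a-ps1 had 3.1, 3.46 and 4.04 CPM against 0.214, 0.333 and 0.231 CPM. Lgals3, galectin 3, was proximal and close to wild type at day 0 (log2FC -0.16) and lower at day 3 with 1.68, 2.32 and 1.93 against 0.432, 0.378 and 0.472 CPM.

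The difference between lines was also compared between days. The Sam68-labelled line's log2FC at day 10 minus that at day 0 had a median of 0.20 in both the proximal and the distal members, against 0.14 on the other autosomes, and that at day 3 minus day 0 had medians of -0.025 and -0.073. So both sides moved up by day 10 while the distance between them stayed between 0.43 and 0.51 over the 3 days.

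Quaking KO was called against wild type in 71 distal members higher and 30 lower at day 0, where 39.7% of all genes were called, 19.4% higher and 20.3% lower. At day 3 the counts were 16 and 12, where 7.01% of all genes were called, 3.08% higher and 3.93% lower. At day 10 they were 42 and 6, where 11.7% were called, 4.96% higher and 6.71% lower. The Quaking distal medians were 0.11, 0.049 and 0.15. Over both sides, 49 members were called at day 3, and 28 without replicate 2 or 30 without replicate 3 of wild type at that day.

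The comparison of wild-type days is another contrast than the one that chose the chromosome, but it is not free of that choice: the same wild-type libraries were the reference there, and all 27 libraries entered the CPM threshold. At day 3 against day 0, 328 of 448 members changed by edgeR's quasi-likelihood test, beside 60.9% of all 21060 genes tested. At day 10 against day 0 390 of 448 did, beside 80.8%. All genes tested include noncoding genes and genes under 1 CPM, so a higher share among members cannot be read as a trait of the chromosome. By side, 114 proximal members rose and 91 fell by day 3, and 69 distal members rose and 54 fell. By day 10, 131 proximal members rose and 113 fell, and 82 distal members rose and 64 fell. Over all genes tested, 30.8% rose and 30.1% fell by day 3 and 41.4% rose and 39.4% fell by day 10. The best break on chromosome 14 lay elsewhere, before Lmo7 at day 3 and before Tbc1d4 at day 10. Its steps were 0.26 and 0.29 in log2, beside medians of 0.22 and 0.32 in absolute size over the other autosomes. It removed 0.54% of the deviation at day 3 and 0.44% at day 10. These shares cannot be set against those of the Sam68-labelled line, because they fall as the spread grows. The SD of the members' log2FC was 1.34 and 2.35 here, against 0.58 in that line at day 0. The members' share of counts was 3.33% ± 0.021 (SD, n = 3) at day 0 and 3.62% ± 0.060 at day 10, with a two-sided exact permutation p of 0.1, the smallest that 3 against 3 can give.

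The members named next are low at one end of the time course and passed the CPM threshold through the groups where they are high, so the direction of their change is set in part by that threshold and they are given as values without a test. Among the largest falls by day 10, Piwil2, a gene of the piRNA pathway, had 50.7, 50.6 and 51.9 CPM at day 0 and 0.532, 0.63 and 0.804 CPM at day 10 (log2FC -6.45 ± 0.13 SE). Tgm1, a transglutaminase gene, went from 96.5, 90.2 and 93.9 to 1.82, 2.03 and 1.66 CPM (-5.85 ± 0.092), and Fgf17, a fibroblast growth factor gene, from 40.3, 40 and 42 to 1.33, 1.02 and 1.17 CPM. Trim52, Slc15a1 and Fam25c were the other falls named by rule, at -8.55, -5.20 and -5.06. Among the largest rises, Ednrb, an endothelin receptor gene, had 0.0752 to 0.12 CPM at day 0 and 73.1, 71.2 and 81 CPM at day 10, and Stab1, a scavenger receptor gene of endothelium and macrophages, 0.15 to 0.217 and 88.7, 89.3 and 93.8 CPM. Myh7 had 0.574, 0.677 and 0.586 CPM at day 0, and its day 10 values stand above (log2FC 8.76 ± 0.13). Slitrk6, Gdf2 and Gpr183 had no count in any wild-type library at day 0, and with a floor of 3 counts per library they were at least 193-fold, 123-fold and 64.8-fold higher at day 10. Such floors cover counting error only.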

How the data were processed

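Libraries were made from ribosome-depleted total RNA with a stranded kit and read as pairs of 125 bases, per the labels' protocols. Each library has 1 deposited file of raw counts by gene, not normalised. Base calling used bcl2fastq 2.17.1.14 and alignment STAR 2.5.3a, both named in the submitters' processing notes. For the counting step, the program, strand option and gene annotation were not given in the sources used here, so reads of overlapping or antisense genes may be shared. GENCODE release 21 held 51633 of the 51826 identifiers (99.6%). Totals ran from 56461674 to 77257496 counts.

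Genes were kept by filterByExpr (minimum count 10, minimum total 15), scaled by TMM and compared by the quasi-likelihood test of edgeR 4.0.16 in R 4.3.3. The Benjamini-Hochberg adjustment covered all genes, and calls needed an adjusted p under 0.05. A fit of a day held its 9 libraries, the wild-type days with their 9, and changes of a line difference between days with 12. CPM values are scaled by TMM of the day's fit. Statistics were tested on simulated data. Sequence shared between genes is the percent of a gene's 50-base transcript windows found in another gene. Alternatives were DESeq2 1.42.0, TMM without chromosome 14, no low count filter, a replicate block, only the 6 libraries compared, stricter members, other bin sizes and each library left out. The spread between these samples, which may be technical, is all that the p-values measure.

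The members, lists and tests were chosen with earlier results of these data known; the break and the contrast of its sides were added after seeing the data. Values are named for up to 4 genes a list (nearest its median or at its ends at day 0), the 6 highest and 6 lowest by the mean of the 3 log2FC of the Sam68-labelled line, the 6 largest wild-type rises and falls by day 10, and the highest mean CPM in each 10 Mb bin; predicted gene models were left out, 1 gene of that rule is not reported here, and the neighbours of the break were named for their position. Replicate numbers count as pairs where all 3 same-numbered pairs correlate over 0.1 in their deviations from the group means: this held for Quaking KO with wild type at day 3 (0.54, 0.23 and 0.17) and for no other comparison of a line with wild type.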

Additional observations from a re-analysis of the deposited data

Results flagged for a closer look

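The results here have every Sam68-labelled library above every wild-type library at 1 day and below all of them at another, and the difference between days was not tested here: changes from day 0 to days 3 and 10 were fitted over 12 libraries, but the chromosome was chosen on this contrast, and day 3 was not fitted against day 10. All values are log2FC of the Sam68-labelled line against wild type. Among transcription factor and signalling genes, Klf12 read 0.85 at day 3 and -0.39 at day 10, and Gfra2 2.52 at day 0 and -0.52 at day 10. Ptprg, a receptor tyrosine phosphatase gene, read 0.16 at day 0, 0.54 at day 3 and -0.21 at day 10. Bmp4 read 0.42 at day 0 and -0.62 at day 10. Myh6, which shares sequence with other myosin genes, read -1.02 at day 0, 0.58 at day 3 and 0.54 at day 10. Camk2g, a calcium-dependent kinase gene, read 0.19 at day 0, -0.14 at day 3 and -0.14 at day 10.

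Rec8, the meiotic cohesin gene, read -0.31 at day 0 and 0.32 at day 3. Gch1, the first enzyme of tetrahydrobiopterin synthesis, read -1.18 at day 0, -0.23 at day 3 and 0.57 at day 10. Dnajc15, a mitochondrial co-chaperone gene on the distal side, read -0.14 at day 0, -0.29 at day 3 and 0.39 at day 10. Trim52 read -0.60 at day 0 and 0.90 at day 3, and Fam25c 0.71 at day 0 and -0.94 at day 3. Mapk1ip1l read -0.16 at day 0, -0.16 at day 3 and 0.25 at day 10. Of these 12 genes, Klf12, Gfra2, Dnajc15 and Trim52 are distal. The summed level of pluripotency markers, 2829 to 2873 CPM at day 0 and 199 to 266 CPM at day 10 in the Sam68-labelled line, moved with the days, and its part was not tested.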

How the results depend on the processing

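Of 75 alternatives in which the break was sought, against wild type and against Quaking KO, 57 placed it between Fdft1 and Neil2, 16 placed it 1 member later, before Gata4, and 2 placed it 4 members earlier, before Ints6. The chromosome 14 median of the Sam68-labelled line at day 3 and the lowest bin at day 10 changed sign, as given below, and neither carries a call. Chromosome 14 medians of the Sam68-labelled line against wild type at days 0, 3 and 10 were 0.083 at day 0 with DESeq2, 0.069 and -0.023 at days 0 and 3 without a low count filter, 0.11 at day 0 with a mean CPM of 5 or more, and 0.15, 0.040 and 0.24 for members with under 5% shared sequence. Leaving out 1 library gave 0.055 to 0.094, -0.0031 to 0.030 and 0.21 to 0.26 in the same order. The lowest were without replicate 2 of wild type at day 0 and replicate 1 of wild type at day 3. By share of counts, the library shifts were 0.22, 0.17 and 0.22 in place of 0.11, 0.077 and 0.18. For Quaking KO at day 0 the median was 0.049 (DESeq2), 0.038 (CPM of 5) and 0.052 (no shared sequence), and at day 10 0.054 with only 6 libraries. Leaving out 1 library gave 0.028 to 0.039 and 0.028 to 0.059. At day 3 it was 0.0090 without replicate 1 of wild type and 0.0097 without replicate 2 of Quaking KO. Its members called at day 3 ranged from 28 to 56 with 1 library left out. The change in the Sam68-labelled difference by day 10 was 0.24 with DESeq2 and 0.24 without the filter (0.16 to 0.24 with 1 library left out), and by day 3 -0.068 without the filter (-0.063 to -0.026). Wild-type medians were 0.15 (DESeq2), 0.049 (CPM of 5) and 0.12 (no shared sequence) at day 10, and 0.062 (DESeq2) and 0.095 (no filter) at day 3, with 0.10 to 0.15 and 0.063 to 0.093 when 1 library was left out. Distal minus proximal medians against wild type, with a CPM of 5 and then without shared sequence, were 0.52 and 0.52 at day 0 and 0.49 and 0.48 at day 10, and 0.47 without shared sequence at day 3. Against Quaking KO they were 0.37 and 0.34 at day 0, 0.31 and 0.32 at day 10 (0.25 with no filter) and 0.45 without shared sequence at day 3. For Quaking KO at day 0 they were 0.086 and 0.070. With 1 library left out they ran from 0.49 to 0.52 and 0.41 to 0.45 against wild type at days 0 and 10, 0.34 to 0.37, 0.42 to 0.45 and 0.26 to 0.32 against Quaking KO at days 0, 3 and 10, and 0.078 to 0.099 and 0.13 to 0.17 for Quaking KO at days 0 and 10. The highest bins of 5 and 20 Mb read 0.48 and 0.49 at day 0, 0.41 and 0.49 at day 3 and 0.62 and 0.60 at day 10. The lowest read -0.13 and -0.11 at day 0, and 0.077 and 0.10 at day 10 against -0.065 for 10 Mb. Same-numbered deviations from wild type and knockout means correlated at 0.54, 0.23 and 0.17 in Quaking KO at day 3, which meets the rule for pairs there, from -0.17 to 0.12 in Quaking KO at the other days and from -0.12 to 0.14 in the Sam68-labelled line. With the replicate block the Sam68-labelled medians were 0.090, 0.019 and 0.22, and 64 members were called in Quaking KO at day 3 against 49. Of the values of named genes under alternatives, 5154 kept their direction and side of the threshold, 176 fell short of it and 81 passed it. The cause of these shifts was not tested. Depth limits members near the threshold of 1 CPM.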
